A study of Mus musculus with 5 samples.

Results

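Excitation-contraction coupling links the electrical signal on a muscle fibre's surface to the release of calcium from its internal store. The genes described here encode the core of that machinery in skeletal muscle: Cacna1s, Cacnb1, Cacng1, Stac3, Ryr1, Jph1, Jph2, Atp2a1, Casq1 and Casq2. They were chosen by name, and the 10 symbols were all found among the 54699 genes of the deposited table. RNA was sequenced from B16F10, a pigmented melanoma line of the mouse, and all 5 cultures had received a lentivirus, controls included. On day 8 the cultures were cells given virus for forced expression of mouse Myod1, a master regulator of the skeletal muscle lineage, cells given virus for Pparg, the nuclear receptor that drives fat cell differentiation, and cells given the empty expression vector. On day 7 they were cells given a short hairpin RNA against Setdb1, an enzyme that methylates histone H3 and silences genes, and cells given the empty knockdown vector. The promoter behind each transgene, the hairpin sequence, the share of cells infected and any selection are not given in the sources used here. Each group is 1 library, so differences between groups could not be set against replicate spread, and p-values are not given. The intervals below cover counting error alone. In such bulk samples, fewer cells of a type and less RNA per cell cannot be told apart.

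As background, an action potential enters a muscle fibre along the transverse tubules, where the L-type calcium channel acts as voltage sensor. Cacna1s encodes its pore-forming subunit, Cacnb1 the cytoplasmic beta subunit that brings the channel to the membrane, Cacng1 the gamma subunit, and Stac3 an adaptor needed to couple the channel to the ryanodine receptor. Ryr1 encodes that receptor, the release channel of the sarcoplasmic reticulum. The junctophilins Jph1 and Jph2 hold the tubule and the reticulum close together, the pump encoded by Atp2a1 returns calcium to the store, and the calsequestrins Casq1 and Casq2 bind it there. Casq1 is the main calsequestrin of fast skeletal fibres, while Casq2 is that of the heart and is also made in slow and developing skeletal muscle. Melanocytes are not known for any such junction.

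The sequence just before the start of these genes is shown for 5 of them because it holds the short motif that muscle transcription factors of the Myod1 family bind, the E-box CANNTG, or a Mef2 motif. RefSeq promoter windows (GRCm38.p6, 250 bases before to 50 bases after the start) were matched by symbol for 7 of the 10 genes, with 9 starts in all, and Cacng1, Stac3 and Jph1 were not matched. Each line gives the bases that lie before the start and outside the gene as the deposited table bounds it, 5′ to 3′ on the gene's own strand. Capitals mark CANNTG and, in Casq2, the Mef2 motif. The choice of lines was made after the matches were seen.
Cacna1s (chr1:136052561-136052749, plus strand): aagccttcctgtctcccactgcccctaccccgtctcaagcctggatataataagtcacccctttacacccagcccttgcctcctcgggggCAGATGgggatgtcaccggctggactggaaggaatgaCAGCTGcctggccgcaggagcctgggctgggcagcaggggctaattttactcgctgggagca
Jph2 (chr2:163397994-163398243, minus strand): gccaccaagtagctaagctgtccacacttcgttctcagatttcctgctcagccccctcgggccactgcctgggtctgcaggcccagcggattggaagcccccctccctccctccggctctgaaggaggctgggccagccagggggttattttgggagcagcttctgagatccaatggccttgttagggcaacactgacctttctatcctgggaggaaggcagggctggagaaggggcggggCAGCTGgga
Atp2a1 (chr7:126463109-126463323, minus strand): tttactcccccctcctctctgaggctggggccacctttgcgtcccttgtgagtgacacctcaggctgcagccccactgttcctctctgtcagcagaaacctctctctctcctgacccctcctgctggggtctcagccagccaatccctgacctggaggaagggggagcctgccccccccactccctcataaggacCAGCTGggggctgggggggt
Casq1 (chr1:172219896-172220145, minus strand): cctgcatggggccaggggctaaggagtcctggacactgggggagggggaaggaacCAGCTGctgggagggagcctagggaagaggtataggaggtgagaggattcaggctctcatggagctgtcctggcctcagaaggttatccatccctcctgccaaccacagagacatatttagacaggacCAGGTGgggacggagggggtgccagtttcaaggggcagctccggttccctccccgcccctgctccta
Casq2 (chr3:102086165-102086414, plus strand): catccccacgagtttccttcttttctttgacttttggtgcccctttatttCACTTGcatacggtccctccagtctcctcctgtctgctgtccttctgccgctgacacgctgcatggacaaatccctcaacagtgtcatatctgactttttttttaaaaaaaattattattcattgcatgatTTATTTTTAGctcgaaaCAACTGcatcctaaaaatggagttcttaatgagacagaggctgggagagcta
CAGCTG, the form of E-box preferred by Myod1, lay in the windows of 4 of the 7 matched genes. Counted from the RefSeq start, its first base stood at position -123 in Cacna1s, -9 in Jph2 (-29 from a second listed start), -55 in Atp2a1 and -195 in Casq1. Of all 32851 windows of the same length, 16.3% held CAGCTG, which reads the same on both strands, and 72.3% held CANNTG, of which it is one form. CAGGTG, another form, searched on both strands, stood at -67 in Casq1 and in 20.2% of all windows. The Mef2 motif, searched on both strands, stood at -69 in Casq2 and in 3.19% of all windows. The Casq2 window held CANNTG at -200 and -52, Cacnb1 held it at -27 of the second of its 2 listed starts, and the Ryr1 window held none. These are matches of letters, and binding was not measured here.

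The libraries held between 16214802 and 18300670 reads assigned to genes, recovered from the deposited values. Levels are FPKM, read counts scaled to transcript length and library depth. The targeted genes went with their labels: Myod1 stood at 260 FPKM (7610 reads) in the Myod1 library and had 0 reads in the other 4, Pparg at 44.4 in its library and 0 elsewhere, and Setdb1 at 0.867 after knockdown against 9.82 in its control. All 8 melanocyte markers examined were at 1 FPKM or more in every library. Their summed level was 3306 FPKM with Myod1 and 2308 with Pparg, against 7816 in the empty expression vector library, and 9098 after Setdb1 knockdown against 8542 in its control. Of the 8, 5 were called lower at 2-fold with Myod1, 6 with Pparg and 2 after Setdb1 knockdown. The 8 skeletal muscle markers summed to 28508 FPKM in the Myod1 library and to between 10.6 and 31.5 in the other 4.

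With Myod1, 9 of the 10 genes were at least 2-fold higher than in the empty expression vector library, and Jph1 alone had almost no reads. In the control library Jph2 stood at 6.30 FPKM and the other 9 genes below 0.5. With Myod1, 8 of the 10 were among the 2134 most abundant of the 18435 genes with reads in that library. The ratio used is log2 of FPKM + 1 in the treated library over FPKM + 1 in its control, over the 12842 genes that reached 1 FPKM in some library, and a gene is called at 2-fold. Of those genes, 14.0% were called higher with Myod1 (9.63% when each library was divided by the sum of its FPKM, 11.6% when scaled to the 75th percentile) and 7.55% lower. A gene at 0 reads in the control is both compared and called once it reaches 1 FPKM with Myod1. The median over the 10 genes was 5.56, against 0.02 over all genes compared. With values under 3 reads set to 3 reads in place of the added 1, it was 8.86. The 10 genes together took 0.304% of the reads with Myod1, 0.00293% in the empty expression vector library, 0.00400% with Pparg, 0.00720% after Setdb1 knockdown and 0.00154% in the empty knockdown vector library.

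**Figure D1:**
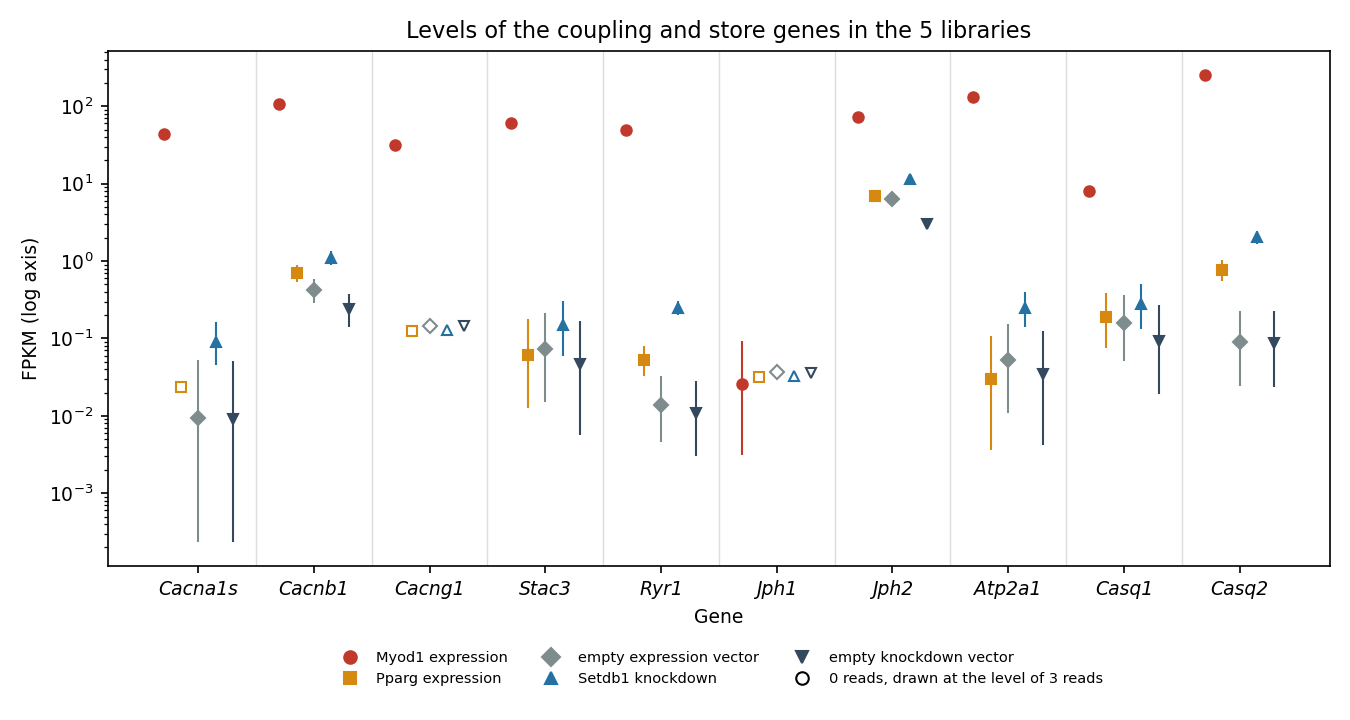
Levels of the 10 genes in the 5 libraries, as FPKM on a log axis, 1 library per point, with 95% intervals for counting error (many are narrower than the symbol); open symbols have 0 reads and are drawn at the level of 3 reads. The Myod1 points lie far above the rest for 9 genes, while Jph2 is the only gene above 1 FPKM in all 5 libraries and Jph1 the only one near 0 in all.

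The voltage sensor came first in the chain and was close to silent without Myod1. Cacna1s (ENSMUSG00000026407, chr1:136052750-136119822, plus strand) stood at 44.5 FPKM with Myod1 (4583 reads), 0 with Pparg, 0.00935 with the empty expression vector (1 read), 0.0907 after Setdb1 knockdown (11 reads) and 0.00913 with the empty knockdown vector (1 read). The Myod1 library was the only one in which the pore-forming subunit reached 0.1 FPKM. Against 1 control read, the ratio with Myod1 was 4761 (95% interval 854 to 188107, log2 ratio 5.49).

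Cacnb1, the beta subunit (ENSMUSG00000020882, chr11:98001508-98023034, minus strand), had reads in every library. It stood at 108 FPKM with Myod1 (7692 reads), 0.703 with Pparg (61 reads), 0.419 with the empty expression vector (31 reads), 1.10 after Setdb1 knockdown (92 reads) and 0.238 with the empty knockdown vector (18 reads). The level with Myod1 was 258 times its control (181 to 380, log2 ratio 6.26). Cacng1, the gamma subunit (chr11:107703218-107716522, minus strand), stood at 31.3 FPKM with Myod1 (614 reads) and had 0 reads in each of the other 4 libraries. Against a control set to 3 reads (0.147 FPKM), its level was 212.6-fold higher. A count of 0 allows up to 0.181 FPKM in the empty expression vector library (upper exact 95% limit), so the true ratio could be lower.

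Stac3, the adaptor (chr10:127501686-127508823, plus strand), stood at 60.3 FPKM with Myod1 (2412 reads), 0.0615 with Pparg (3 reads), 0.0722 with the empty expression vector (3 reads), 0.149 after Setdb1 knockdown (7 reads) and 0.0470 with the empty knockdown vector (2 reads). With Myod1 its ratio to the control was 835 (285 to 4053, log2 ratio 5.84). Outside the Myod1 library, its values rest on 2 to 7 reads and their intervals overlap.

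Ryr1, the release channel (ENSMUSG00000030592, chr7:29003344-29125179, minus strand), drew 16843 reads with Myod1, the most of the 10 genes, over the longest transcript length of the 10 (21838 bases). Per length that was 49.1 FPKM, against 0.0526 with Pparg (22 reads), 0.0140 with the empty expression vector (5 reads), 0.247 after Setdb1 knockdown (100 reads) and 0.0110 with the empty knockdown vector (4 reads). The Myod1 level was 3499.8 times its control (1499 to 10779.9, log2 ratio 5.63).

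The junctophilins went separate ways. Jph2 (chr2:163336242-163397993, minus strand) stood at 73.6 FPKM with Myod1 (4926 reads), 6.92 with Pparg (564 reads), 6.30 with the empty expression vector (438 reads), 11.6 after Setdb1 knockdown (913 reads) and 3.02 with the empty knockdown vector (215 reads). It was thus well above 0 in both control libraries, and the Myod1 level was 11.7 times its control (10.6 to 12.9, log2 ratio 3.35), or 4.21 on the log2 scale against the other control. Jph1, the junctophilin best known from skeletal muscle (chr1:16964560-17097889, minus strand), had 2 reads with Myod1 (0.0254 FPKM) and 0 reads in the other 4 libraries. It never reached 1 FPKM and was not among the genes compared. Within the Myod1 library Jph2 exceeded Jph1 by a ratio of 2893 per length (800 to 23896), where 2 reads set the width of the interval.

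Atp2a1, the calcium pump of fast fibres (chr7:126445858-126463108, minus strand), stood at 133 FPKM with Myod1 (7265 reads), 0.0300 with Pparg (2 reads), 0.0528 with the empty expression vector (3 reads), 0.249 after Setdb1 knockdown (16 reads) and 0.0344 with the empty knockdown vector (2 reads). The ratio with Myod1 was 2516 (861 to 12203, log2 ratio 6.99). Of its 3477 exon bases, 763 are shared with Rabep2 on the opposite strand, and the handling of strand in the counting is not given in the sources used here. Rabep2 stood at 6.41 FPKM with Myod1 and 6.17 with the empty expression vector, and at 10.96 after Setdb1 knockdown against 6.09 in its control.

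Both calsequestrins were called higher, and Casq2 rather than Casq1 had the higher level. Casq2 (chr3:102086415-102146514, plus strand) stood at 255 FPKM with Myod1 (10991 reads), 0.763 with Pparg (40 reads), 0.0895 with the empty expression vector (4 reads), 2.03 after Setdb1 knockdown (103 reads) and 0.0874 with the empty knockdown vector (4 reads). With Myod1 it stood at 2855 times the control (1115 to 10479, log2 ratio 7.88). The order of the ratios depends on the added 1: Casq2 leads on the FPKM + 1 scale, while with values under 3 reads set to 3 reads Ryr1 leads, at 11.77 against 11.48 for Casq2. Casq1 (chr1:172209894-172219868, minus strand) stood at 8.05 FPKM with Myod1 (247 reads), 0.187 with Pparg (7 reads), 0.157 with the empty expression vector (5 reads), 0.277 after Setdb1 knockdown (10 reads) and 0.0920 with the empty knockdown vector (3 reads). That was 51.3 times the control (21.7 to 159, log2 ratio 2.97). Within the Myod1 library Casq2 exceeded Casq1 by 31.7 times per length (28.0 to 36.1).

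Per length in the Myod1 library, the order of levels was Casq2, Atp2a1, Cacnb1, Jph2, Stac3, Ryr1, Cacna1s, Cacng1, Casq1 and Jph1. Neighbours in this order differed beyond their counting intervals. Casq2 stood at 1.92 times Atp2a1 (1.87 to 1.98), Jph2 at 1.22 times Stac3 (1.16 to 1.28) and Ryr1 at 1.10 times Cacna1s (1.07 to 1.14), the closest pair. Whether another culture would keep the order cannot be said from 1 library. Among the parts of the voltage sensor, the beta subunit Cacnb1 stood at 2.43 times the pore-forming Cacna1s (2.34 to 2.52), the adaptor Stac3 at 1.36 times (1.29 to 1.42) and the gamma subunit Cacng1 at 0.703 times (0.645 to 0.764).

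Close relatives of the 10 genes show which forms were present with Myod1. Ryr1 exceeded Ryr3, a release channel of many tissues, by 348 times per length (258 to 484), while in the empty expression vector library it stood at 0.0523 times Ryr3 (0.0166 to 0.127). Ryr3 itself was at 0.141 FPKM with Myod1 and 0.268 in the control, and Ryr2, the cardiac release channel, had 0 reads in both. Cacna1s exceeded Cacna1c, the pore-forming subunit of the cardiac L-type channel, by 256 times (197 to 337), against 0.0216 times in the control. Cacnb1 exceeded Cacnb3, the beta subunit most abundant without Myod1, by 12.8 times (11.7 to 14.0), against 0.0658 times in the control. For the pump the pattern was different. Atp2a2, the form present in nearly all cells, was at 110 FPKM in the control and 174 with Myod1 (log2 ratio 0.66, not called), so that Atp2a1 reached 0.763 times its level (0.742 to 0.785). The gamma subunit Cacng6, related to Cacng1, had 0 reads in the control and 25.5 FPKM with Myod1, and Cacng1 stood at 1.23 times that level (1.10 to 1.37).

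**Figure D2:**
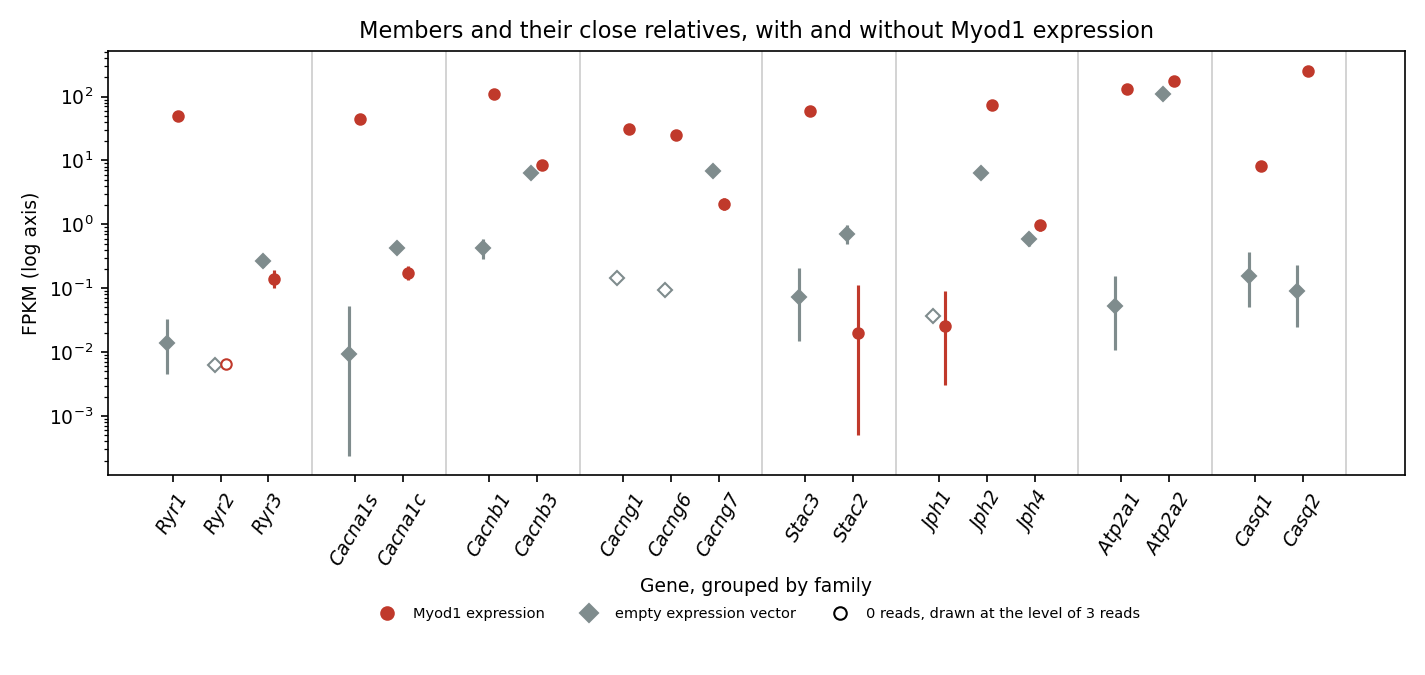
FPKM on a log axis of the genes and their relatives, grouped by family, in the Myod1 library (circles) and the empty expression vector library (diamonds), with 95% intervals for counting error; open symbols have 0 reads and are drawn at the level of 3 reads. Ryr1, Cacna1s, Cacnb1 and Casq2 lie above their relatives in the Myod1 library, Atp2a1 lies just under Atp2a2, and Jph1 and Ryr2 stay near 0.

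Casq2 and Jph2 are also genes of the heart, so cardiac markers were read beside them. The summed level of 8 cardiac markers was 1137 FPKM with Myod1 and 10.7 to 26.4 in the other 4 libraries. Nearly all of it was Myl4 (1119 FPKM), a myosin light chain also made in embryonic skeletal muscle, and Nkx2-5, Tbx5 and Myl7 had 0 reads with Myod1. Of the 4 cardiac markers compared, Myl4 (0.172 FPKM in the control), Gata4 (3.21 FPKM against 0 reads) and Myh6 (3.52 FPKM against 0.0182) were called higher, and Nppb (11.6 FPKM against 26.3) was called lower. Their part in the levels of Casq2 and Jph2 was not tested. Of 6 smooth muscle markers, 2 were compared and 2 called higher with Myod1, Smtn (90.4 FPKM) and Lmod1 (57.2). The sum of the 6 was 148 FPKM with Myod1, against 9.48 in the control. Myocd, the regulator of that lineage, had 0 reads in all 5 libraries. The 8 skeletal muscle markers were all called higher, Myog among them at 948 FPKM, against 0 reads in the other 4 libraries.

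With Pparg, none of the 10 genes was called, and 6.52% of all genes compared were called in either direction, 4.22% higher and 2.30% lower. With 1 added, a call needs at least 1 FPKM in a library of the pair, which only Jph2 had, so the count says nothing of the other 9. Read without the added 1, Casq2 stood at 8.52 times the control (3.08 to 32.8, from 40 and 4 reads; log2 ratio 0.69 with the 1 added), Ryr1 at 3.75 times (1.39 to 12.7, from 22 and 5 reads) and Cacnb1 at 1.68 times (1.07 to 2.67). These intervals exclude 1 for counting error, at levels under 1 FPKM. Jph2 was at 1.10 times the control (0.967 to 1.25). Skeletal muscle markers were low in that library: their sum was 31.5 FPKM against 14.0 in the control, with Mylpf called (17.6 FPKM against 7.61) and Myog at 0 reads. Pparg and Myod1 share the same control library.

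After Setdb1 knockdown, Jph2 and Casq2 were called higher, 2 of the 9 compared, where 9.34% of the 12842 genes compared were, and none lower, where 10.3% were. Only 3 of the 10 had at least 1 FPKM in a library of the pair, as had 11557 of all genes. The median log2 ratio over the 10 genes was 0.25, against 0.00 over all genes compared. These values depend on how low levels are treated. With a pseudocount of 0.1 the count was 5 and the median 1.17, where 15.0% of all genes compared were called higher. With values under 3 reads set to 3 reads, the count was 8 and the median 1.83, and the share over all genes was not counted. At a 4-fold limit the count was 0, where 0.919% of all genes compared were called higher. Jph2 went from 3.02 to 11.6 FPKM, 3.84 times (3.30 to 4.47, log2 ratio 1.65), and Casq2 from 0.0874 to 2.03 FPKM, 23.3 times (8.82 to 87.0, log2 ratio 1.48). The call on Jph2 does not hold against the other control, where its log2 ratio is 0.79. The controls themselves differed at Jph2, by a factor of 0.480 (0.405 to 0.566). Casq2 kept a log2 ratio of 1.48 against the other control, and 5.80% of all genes were called higher against both.

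Ryr1, Cacnb1, Atp2a1 and Cacna1s, at low levels, were also higher after the knockdown than in its control beyond counting error, though none was called. The share of all genes at like low levels that rose was not counted. Ryr1 stood at 22.6 times the control (8.55 to 84.5, from 100 and 4 reads), Cacnb1 at 4.62 times (2.77 to 8.14), Atp2a1 at 7.23 times (1.70 to 64.8, from 16 and 2 reads) and Cacna1s at 9.94 times (1.44 to 428, from 11 reads and 1). For Stac3 (3.16 times, 0.602 to 31.2) and Casq1 (3.01 times, 0.776 to 17.0) the interval includes 1, and Cacng1 and Jph1 had 0 reads in both libraries. The levels of Ryr1, Atp2a1 and Cacna1s remained under 0.25 FPKM, against 44.5 to 133 FPKM for these genes with Myod1. Of the 8 skeletal muscle markers after knockdown, Des was called higher (13.6 FPKM against 4.75) and none lower. Myog, Ckm and Myh8 had 0 reads, Acta1 had 20 reads (0.704 FPKM), and Mylpf stood at 3.66 FPKM against 5.74. Of the other store genes none was called in either direction. Srl was at 0.457 FPKM against 1.46, Hrc had 0 reads against 5 and the pump Atp2a2 was at 56.7 FPKM against 105, while Calr was at 418 FPKM against 357 and the pump Atp2a3 had 31 reads against 0. Myod1 itself had 0 reads.

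GC content moved with the Setdb1 comparison, and with Myod1 too. Jph2 has 61.8% GC in its longest annotated transcript, and the 529 genes compared within 2 percentage points of it had a median log2 ratio of 0.48, with 21.4% called higher. Casq2 has 47.2% GC, and the 2623 genes near it had a median of -0.14, with 5.30% called higher. With the median of genes of like GC content subtracted from each gene, Jph2 (1.17) and Casq2 (1.62) stayed past 2-fold. For the genes at low levels the added 1 compresses the ratio, so this subtraction was not read for them. With Myod1, the genes near Jph2 in GC content had a median of 0.36, and those near Casq2 a median of -0.07. The part of GC content in either result was not tested.

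**Figure D3:**
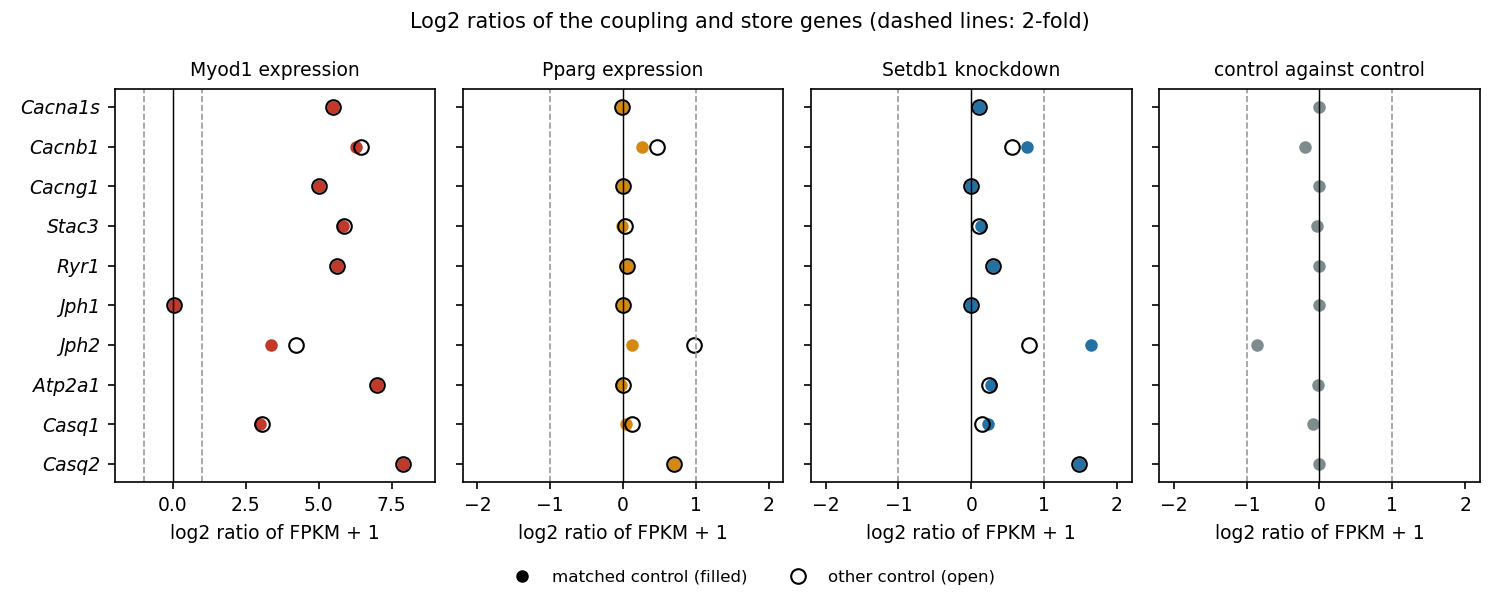
Log2 ratios of FPKM + 1 for the 10 genes in 4 comparisons, against the matched control (filled) and the other control (open), with dashed lines at 2-fold; the axis of the Myod1 panel is wider than the others. Nearly all genes lie far to the right with Myod1, Casq2 and Jph2 pass the line after Setdb1 knockdown (Jph2 against its matched control alone), and the controls differ most at Jph2.

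Between the empty vector libraries none of the 10 genes was called, and 2.67% of all genes were. Jph2 alone had at least 1 FPKM in either library, so no other of the 10 could be called. Jph2 had the largest difference of the 10, with a log2 ratio of -0.86 for the knockdown vector over the expression vector. The days of collection differ between these controls as well as the vectors, and the effects of day and vector cannot be told apart.

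A wider set of 92 genes of calcium handling and excitability was then read in 6 lists chosen by function, of which 90 were in the table. Of these, 48 reached 1 FPKM in some library and were compared. With Myod1, 25 of the 48 were called higher (52.1%, beside 14.0% of all genes compared) and 3 lower (6.25%, beside 7.55%), and the median log2 ratio over the 90 was 0.15. Some of the 48 passed the filter only through the Myod1 library. With 1 added, such a gene at 0 reads in the control is called by construction. The 52.1% is thus a description and not a test. Of the 25, 9 came from the list of junction and transverse tubule proteins (16 genes, 11 compared, none lower, median 2.75). Jsrp1, a junctional protein that binds both Cacna1s and calsequestrin, went from 0.184 to 319 FPKM (log2 ratio 8.08). Trim72, a membrane repair protein, went from 0 reads to 220 FPKM, Cav3, the caveolin of muscle, from 0 reads to 86.1, and Tmem38a, a potassium channel of the reticulum that balances charge during release, from 8.14 to 368. Tmem38b, Bin1 (28.9 to 358 FPKM), Dysf and Ank1 were also called. Trdn, which anchors calsequestrin to the release channel, was not among those compared: it had 48 reads with Myod1 (0.326 FPKM) and 0 in the control. Sypl2, a junctional membrane protein of skeletal muscle, had 0 reads in both.

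Among store pumps, pump regulators and calcium buffers, 5 of the 8 compared (11 in the table) were called higher with Myod1 and 1 lower (median 0.66). The reticulum protein Srl went from 1.82 to 384 FPKM (log2 ratio 7.09), and Hrc, a calcium-binding protein of the store, from 0.143 to 106 (log2 ratio 6.54). Of the small membrane peptides that restrain the pump, Sln went from 0 reads to 28.2 FPKM and Mrln from 0 reads to 7.65, while Pln, the cardiac one, had 0 reads in both libraries. Pvalb, the cytosolic buffer of fast fibres, was called at 1.71 FPKM (28 reads). Calr, the calcium-binding chaperone of the endoplasmic reticulum of most cells, was called lower, at 229 against 473 FPKM (log2 ratio -1.05).

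Of the 25 channel relatives, 4 were compared, with 2 called higher and 1 lower. Cacng6 is given above, Cacna1i, a T-type channel, went from 0 reads to 3.55 FPKM, and Cacng7 went from 6.75 to 2.11 (log2 ratio -1.32). Cacna2d1, the auxiliary alpha-2-delta subunit that completes the channel in muscle, had 0 reads in both libraries. Release channels and their binding proteins had 2 calls higher and 1 lower of 9 compared, beside 14.0% and 7.55% of all genes compared. Fkbp1b, a stabiliser of ryanodine receptors, went from 0.600 to 5.11 FPKM and S100a1, a calcium sensor that binds them, from 46.0 to 152. Itpr2, an inositol trisphosphate receptor, went from 3.02 to 0.950 (log2 ratio -1.05). The 3 calls of lower level, Calr, Cacng7 and Itpr2, all miss 2-fold against the other control, with log2 ratios of -0.64, -0.92 and -0.66.

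Of 17 genes of calcium entry, extrusion and mitochondrial uptake, 10 were compared and 2 called higher with Myod1, beside 14.0% of all genes compared. Mcu, the mitochondrial calcium uniporter, went from 2.05 to 28.2 FPKM (log2 ratio 3.26), and Orai1, the pore of store-operated entry, from 9.74 to 89.6 (log2 ratio 3.08). Of 10 excitability genes 6 were compared and 5 called higher (median 0.87). Among them Scn4a, the sodium channel of adult skeletal muscle, went from 0 reads to 1.91 FPKM, and Kcnj12, an inward rectifier, from 0 reads to 1.06.

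Pparg gave 4 calls higher among the 48 (8.33%, beside 4.22% of all genes compared) and 1 lower (2.08%, beside 2.30%). Jsrp1 went from 0.184 to 3.52 FPKM (19.2 times, 7.24 to 71.9, log2 ratio 1.93), and S100a1 and Dysf had log2 ratios of 1.42 and 1.64. Calr, at -1.10, was the gene called lower and misses the limit against the other control (-0.70). Setdb1 knockdown gave 9 higher (18.8%, beside 9.34%) and 2 lower (4.17%, beside 10.3%). S100a1 went from 28.9 to 313 FPKM (log2 ratio 3.39), Cacnb3 from 3.53 to 19.4 (2.17), and Tmem38b and Orai1 had log2 ratios of 1.27 and 1.18. Itpr3, Dysf and Orai3 were also called, with log2 ratios of 1.12 to 1.33, and miss the limit against the other control. Itpr1 (-1.27) and Asph (-1.11) were called lower against both controls, as were 7.56% of all genes. No gene of the 90 was called between the controls. S100a1 and Dysf were among the genes called in all 3 treated libraries. Since Myod1 and Pparg share a control, these calls are not independent of each other.

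**Figure D4:**
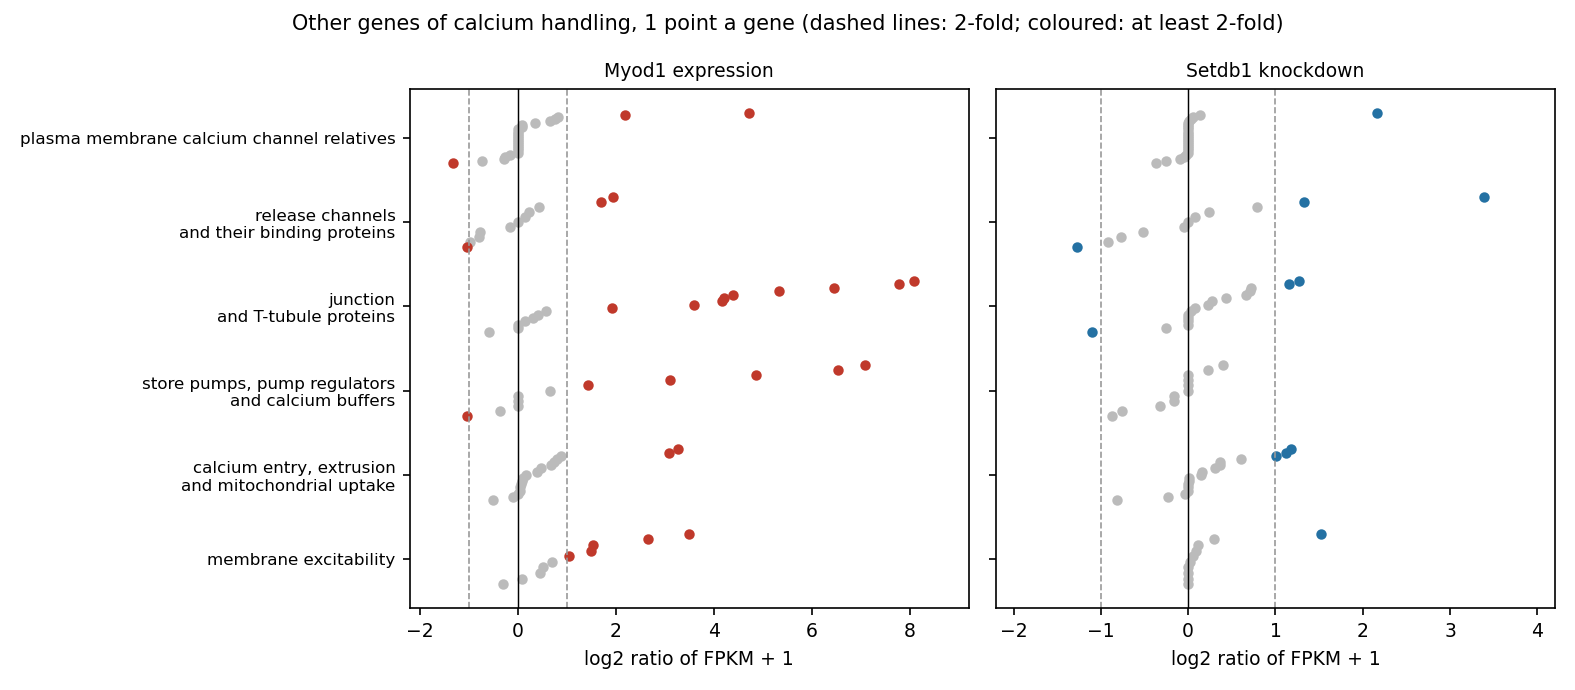
Log2 ratios of FPKM + 1 for the 90 other genes of calcium handling in 6 lists, 1 point a gene, with Myod1 (left) and after Setdb1 knockdown (right); coloured points pass 2-fold (dashed lines) and reach 1 FPKM in some library, and the axes of the panels differ. The right-hand tail with Myod1 is longest for the junction and T-tubule list, where 9 of 16 genes are coloured.

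The genes whose levels over the 5 libraries lay closest to each of the 10 were found by the distance between profiles of log2(FPKM + 1). The nearest to Ryr1 was Cacna1s (distance 0.249), followed by Lmod2 and Popdc2. The nearest to Cacna1s was Tmem182 (0.175), to Cacng1 the pump regulator Sln (0.143), to Stac3 Myom3 (0.156), to Atp2a1 Fbxl22 (0.315) and to Casq1 Pik3c2b (0.314). Jph2, with its level above 1 FPKM in every library, lay nearest to Plpp7 (0.465) and Mapre3 (0.603). The nearest profiles lay farther off for Casq2 (1.09, Cox6a2), Jph1 (0.965, E330020D12Rik) and Cacnb1 (0.807, Art1), and Jph1 itself never reached the level at which genes were searched. Such likeness is dominated by 1 library: 482 genes had at least 1 FPKM with Myod1 and under 0.5 in the other 4, and 157 of any function had 0 reads there, as Cacng1 did.

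Genes next to the 10 on the chromosome gave a check on position. Of the 18 neighbours of the 9 called genes, 10 were compared, with 1 called higher and 1 lower, where 14.0% and 7.55% of all genes were. Sh2b1, beside Atp2a1, was the one called higher with Myod1 (54.3 against 23.0 FPKM, log2 ratio 1.21), and Kif21b, beside Cacna1s, was the one called lower (8.50 against 49.8 FPKM, log2 ratio -2.42). The call on Kif21b does not hold against the other control, where its log2 ratio is -0.72. Cacng4, the family member beside Cacng1, had 0 reads with Myod1. Overlap with genes on the opposite strand also touched Cacna1s (1309 of 6550 exon bases, with Gm37759), Ryr1 (864 bases, with Gm26604), Casq1 (156 bases, with Gm17224) and Cacnb1 (80 bases, with Gm11629). Of these partners, the highest level in any library was 1.66 FPKM, for Gm11629 with Myod1.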

How the data were processed

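RNA libraries of 5 B16F10 cultures were made with the NEBNext Ultra kit, per the labels' protocols. CASAVA, HISAT2, featureCounts 1.5.0-p3 and the genome build GRCm38 are named, per the submitters' processing notes. The authors deposited FPKM per gene with symbol, position, length and biotype. Of 54409 gene identifiers shared with GENCODE M21, 98.3% had the same position. Multiplied by length, 100% of FPKM values were whole multiples of 1 step per library (tolerance 0.01 reads), which gave back the reads. The number by which the authors divided was 0.859 to 1.10 times the reads, so the deposited FPKM were already scaled between libraries. From there, log2 ratios with 1 added to FPKM, a 2-fold limit, a minimum of 1 FPKM in 1 library, exact (Clopper-Pearson) 95% intervals on shares of reads, and intervals of ratios from the binomial split of a pair's reads were computed (Python 3.11.15, pandas 2.3.3, scipy 1.17.1) and tested on simulated data. A control at 0 reads was set to 3 reads for an approximate lower bound of a fold. For GC content, each gene's longest transcript in GENCODE M21 was used, found for 12679 of 12842 genes.

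The 10 genes and all lists were chosen with earlier results of these data known. Named are the 10 genes, in each list and comparison up to 4 called genes with the highest and 3 with the lowest ratio, 11 direct partners or relatives, the 3 nearest profiles, targeted genes and markers. Genes named outside this rule (Bin1, Tmem38b, Dysf, Ank1, Pvalb and Kcnj12 with Myod1, Cacnb3 as a relative of Cacnb1, Sypl2, neighbours and overlapping genes) were chosen after their values were seen. Some genes of the lists are not reported here by name. Strit1 was matched through a RefSeq synonym, and Erln and Arln were not matched. Marker lists for leukocytes, neurons and adipocytes were summed too: with Myod1 the sums were 4.41, 136 and 0 FPKM, against 12.2, 202 and 0.0527 in its control. With Pparg, which shares that control, they were 1.88, 82.9 and 155. After Setdb1 knockdown they were 18.9, 36.3 and 0.166, against 4.00, 120 and 0.0433 in its control. Alternatives were another pseudocount, other filters, limits, scalings and controls, and, chosen after the data were seen, a floor of 3 reads and subtraction of the median of genes of like GC content.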

Additional observations from a re-analysis of the deposited data

How the results depend on the processing

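With Myod1, 3.29% to 18.3% of all genes were called higher under the alternatives where that was counted. The same 9 genes were called under every alternative run. Their direction held too, but the size did not: the median log2 ratio of 5.56 became 8.37 with a pseudocount of 0.1, 8.86 with values under 3 reads set to 3 reads, 5.23 with division by the column sum, 5.42 with scaling to the 75th percentile and 5.38 with genes of like GC content subtracted. The median of all genes compared went to -0.26 with the column sum and to -0.11 with the 75th percentile. With Pparg the count of 0 became 1 (Casq2) with a pseudocount of 0.1 and 2 (Ryr1 and Casq2) with the 3-read floor. At that pseudocount 13.5% of all genes compared were called with Pparg, against 6.52% with 1 added. After Setdb1 knockdown the count of 2 became 5 with a pseudocount of 0.1, 8 with the 3-read floor, 0 at a 4-fold limit, and 1 (Casq2) against the other control or against both controls. The share of all genes called higher went from 9.34% to 15.0% with that pseudocount. It was 0.919% at the 4-fold limit, 8.72% against the other control and 5.80% against both. The Setdb1 median of 0.25 became 1.17 with a pseudocount of 0.1, 1.83 with the 3-read floor and 0.05 with GC subtracted. Between the controls, Jph2 made the count 1 with a pseudocount of 0.1, where 7.41% of all genes were called, and with the 3-read floor. A smaller pseudocount or a floor gives low levels more weight by construction. No called value changed sign. Of values that were not called, the Pparg median (0.02) became -0.05 with the 3-read floor and -0.01 with GC subtracted, and that between the controls went from -0.01 to 0.00 with GC subtracted. After Setdb1 knockdown, GC subtraction took Ryr1 from 0.30 to -0.07, Cacna1s from 0.11 to -0.11 and Stac3 from 0.13 to -0.11, on the scale that the added 1 compresses. Of the values of single genes, 36 of 90 moved beyond their counting interval with Myod1 and 25 of 70 after Setdb1 knockdown. The 90 include settings that change only the filter, under which the ratio of a single gene cannot move. The 70 include none, so the shares are not alike.

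No paired analysis was possible because each group has 1 library, and for the same reason leaving out a replicate was not run. Depth limits the low values: Stac3, Casq1 and Atp2a1 rest on 2 to 16 reads outside the Myod1 library, and their intervals there span several-fold.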
